A study of Mus musculus with 36 samples.

Results

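The comparison set RNA purified through the HA tag from Cre-positive adult diaphragm against RNA taken through the same purification from Cre-negative adult diaphragm. It was defined by the column names of the deposited table and holds 6 of the 36 libraries of the series, 3 in each group. The Cre-negative mice had the genotype Ribo-tag alone, and the Cre-positive mice had the genotype ChAT-Cre;Ribo-tag. Both groups were 2 months old, the labels name no treatment, and all 6 libraries came from muscle enriched for synapses, which the series title and design text place in the diaphragm and at the neuromuscular junction. All Ribo-tag mice carry an allele of Rpl22, a protein of the large ribosomal subunit, and Cre switches that allele to a form that ends in an HA tag. Cre is driven here by ChAT, the gene for choline acetyltransferase, which motor neurons express, so that tagged ribosomes are designed to arise in cholinergic cells and their axon endings. The Cre-negative libraries therefore measure what the purification recovers without tagged ribosomes, and a difference between the groups is a difference from that background. The other groups used below are P10 diaphragm of both genotypes, with 3 libraries each, and 3 libraries of purified RNA from adult ChAT-Cre;Ribo-tag spinal cord. Nothing in the labels ties the 3 replicates of a group to separate mice or says whether mice were pooled, and p-values then measure only the spread between these libraries, which may be technical.

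A motor axon ends on a muscle fibre at the neuromuscular junction, where vesicles release acetylcholine onto clustered receptors. Choline acetyltransferase makes the transmitter, the vesicular transporter Slc18a3 loads it into vesicles and the transporter Slc5a7 takes choline back up. The muscle fibre around the ending is a large cell full of contractile protein, mitochondria and calcium stores, and Schwann cells, fibroblasts, vessels and blood lie beside it.

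Depth, recovered from the step that 1 read makes in the CPM values (reads per 1000000 reads of a library), was 89.2, 87.5 and 90.6 M reads (M stands for 1000000) in Cre-negative replicates 1 to 3 and 94.2, 107 and 102 M in Cre-positive replicates 1 to 3. Genes without a read made up 30.2% to 35% of the table in the Cre-negative libraries and 27.2% to 33.6% in the Cre-positive ones, against 11.7% to 12.9% in adult spinal cord. The 10 most abundant genes took 17.5% to 20.2% of the reads in Cre-negative and 23.2% to 23.8% in Cre-positive libraries.

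In both adult diaphragm groups 1 library stood between the other 2. Cre-negative replicate 1 was best written as 0.452 times replicate 2 plus 0.546 times replicate 3, and for 87.5% of genes its level lay between theirs. Cre-positive replicate 3 was best written as 0.281 times replicate 1 plus 0.717 times replicate 2, with 80.7% of genes in between. For the outer 4 libraries the share was 5.99% to 14.2%. The outer libraries of a group differed widely. Of the genes at 10 CPM or more, 26.1% were over 2 times apart between Cre-negative replicates 2 and 3 and 17.4% between Cre-positive replicates 1 and 2, against 0.129% between the outer spinal cord libraries. A gene was at 0 in 1 outer library and at 100 reads or more in the other in 813 cases for Cre-negative, 602 for Cre-positive and 6 for spinal cord. The labels do not describe these libraries, the cause was not tested, and the counts of calls and the leading genes below are given with and without the intermediate library of every group.

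**Figure D1:**
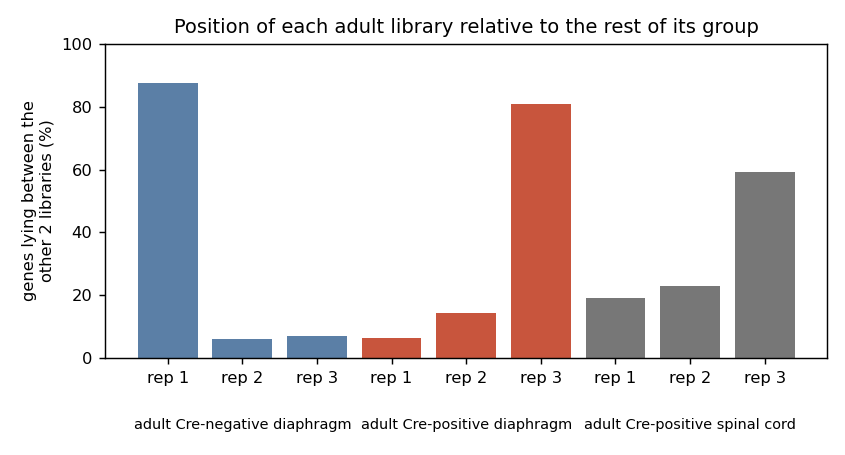
Bars give, for each adult library, the percent of genes whose level lies between those of the other 2 libraries of its group (y axis, 0 to 100%). Cre-negative replicate 1 reaches 87.5% and Cre-positive replicate 3 reaches 80.7%, while the outer diaphragm libraries stay between 5.99% and 14.2%.

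Between the adult groups, a set of genes known from liver and blood plasma was higher in the Cre-positive libraries, and a larger set of genes of varied function was lower. The transmitter genes of motor neurons were near 0 on both sides. In the limma fit of all 24 diaphragm libraries on log2(CPM + 1), 1659 of 13853 tested genes (12%) passed a Benjamini-Hochberg adjusted p of 0.05. Of these, 424 (3.06% of the tested genes) were higher and 1235 (8.92%) were lower in the Cre-positive libraries. The 3 Cre-positive and 3 Cre-negative values did not overlap for 1548 of the called genes, and over all tested genes this was so for 4542 (32.8%). The median difference over all tested genes was -0.12 on the log2 scale. Scaling by median ratios (RLE) moved it to 0.03 and the split of the calls to 969 higher (7.03%) and 794 lower (5.76%), and quantile normalization gave 858 higher (6.19%) and 910 lower (6.57%). Directions below are therefore relative to the CPM scale.

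Without the intermediate library of each group, 14 of 13284 genes (0.105%) passed in the same test, 6 higher (0.0452%) and 8 lower (0.0602%), and 1042 had an unadjusted p under 0.05. All 14 were among the 1659, in the same direction. The words "without the intermediate libraries" below stand for this fit of 16 libraries unless another is named. Leaving out Cre-negative replicate 1 alone gave 844 calls, and leaving out Cre-positive replicate 3 alone gave 909. Of the 1659 called genes, 1603 kept enough libraries at 1 CPM to be tested, and all 1603 had the same sign of difference. These genes were chosen with the same libraries, and where the groups do not overlap, leaving libraries out cannot change the sign. The shared sign is therefore no separate support. A fit of the adult groups alone without their intermediate libraries called 52 of 9160 genes (0.568%), 8 higher (0.0873%) and 44 lower (0.48%), among them 5 members of the 34 gene lists described below, Alb, Apoa1, Ndufa1, Uqcr11 and Cox7a1. Leaving only the 2 adult intermediate libraries out of the fit of all groups gave 434 calls (3.15%), 91 higher (0.661%) and 343 lower (2.49%). edgeR's quasi-likelihood test on the recovered reads called 2539 genes (20.7%) with all libraries, 1434 higher (11.7%) and 1105 lower (9.02%). Without the intermediate libraries edgeR called 0 (0%), and 1351 had an unadjusted p under 0.05. DESeq2 called 3683 of 12244 genes with all libraries. In the main limma fit 3519 of 13853 genes had an unadjusted p under 0.05. Each list count below by another scaling or tool is to be read against that method's share over all genes.

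**Figure D2:**
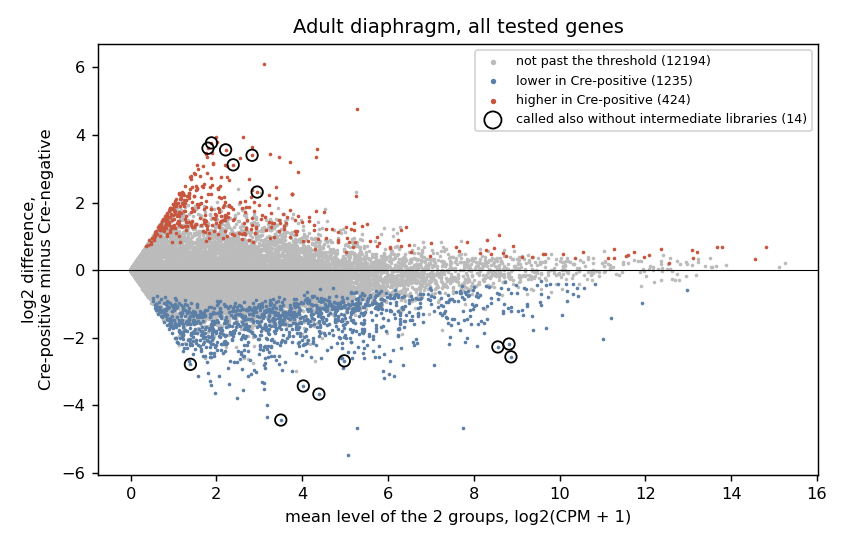
Each point is 1 of the 13853 tested genes, with the mean level of the 2 groups on the x axis, log2(CPM + 1), and the log2 difference, Cre-positive minus Cre-negative, on the y axis. The 424 higher calls are red, the 1235 lower calls blue, and black rings mark the 14 genes that also passed without the intermediate libraries.

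The 6 genes that were higher with and without the intermediate libraries were Mup20, Mup7, Mup19, Serpina3k, Srm and Eva1b. With all libraries, edgeR did not call Mup7 (edgeR adjusted p 0.071) or Mup19 (0.076), and it called Mup20, Serpina3k, Srm and Eva1b. In the fit of the adult groups alone without their intermediate libraries, Mup7 passed (limma adjusted p 0.043). Mup19 (0.088) and Eva1b (0.15) did not pass in that fit, and Mup20, Serpina3k and Srm were not tested in it. Mup20 encodes a major urinary protein, a small carrier of pheromones that mouse liver secretes. Its level was 0 CPM in all 3 Cre-negative libraries and 11.1, 13.5 and 13.4 CPM in Cre-positive replicates 1 to 3. The Cre-positive mean was at least 376-fold higher when each Cre-negative library is set to a floor of 3 reads (log2 difference 3.77 ± 0.28 SE, limma adjusted p = 2.2e-08, and 0.014 without the intermediate libraries). Mup7 stood at 1.64, 0 and 2.3 CPM against 25, 16.9 and 20.9 CPM, and Mup19 at 0.729, 0 and 1.82 CPM against 17, 11.3 and 13.3 CPM. Their log2 differences were 3.4 and 3.12. Neither gene's groups overlapped.

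Serpina3k, a serine protease inhibitor of plasma made by the liver, was at 0 CPM in the Cre-negative libraries and at 11.2, 10.7 and 11.7 CPM in the Cre-positive ones (log2 difference 3.61 ± 0.33 SE, limma adjusted p = 2.9e-07, and 0.04 without the intermediate libraries). Srm encodes spermidine synthase, an enzyme of polyamine synthesis, and lies at chr4:148591513-148594619 in GRCm38. It stood at 0.37, 0.708 and 0 CPM against 18.5, 12.6 and 13.5 CPM, a log2 difference of 3.56. In adult spinal cord Srm was at 31 ± 3.48 CPM (SD, n = 3). Eva1b, a membrane protein gene, stood at 3.07, 2.49 and 1.84 CPM against 20, 14.1 and 14.5 CPM, a log2 difference of 2.31. The lowest Cre-positive library was above the highest Cre-negative one for all 3 genes.

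The 8 genes that were lower with and without the intermediate libraries were Abracl, Ube2v2, Arl4a, Vbp1, Tbca, Tmem126a, Zcrb1 and Idi1. Abracl, a small protein of the costars family, lies at chr10:18011260-18023252. Its level was 51.7, 48.5 and 46.3 CPM in the Cre-negative libraries and 0.138, 2.55 and 2.03 CPM in the Cre-positive ones. The groups were far apart compared with the spread within either (48.8 ± 2.7 against 1.57 ± 1.27 CPM, SD, n = 3 each, log2 difference -4.43 ± 0.34 SE, limma adjusted p = 4.9e-08, and 0.0036 without the intermediate libraries). Adult spinal cord held Abracl at 26.2 ± 2.09 CPM. Idi1, an isomerase of isoprenoid and cholesterol synthesis, stood at 6.61, 5.51 and 5.6 CPM in Cre-negative libraries and at 0 in all 3 Cre-positive libraries, at least 198-fold lower by the 3-read floor. Its adjusted p was 1.8e-07 and 0.048 without the intermediate libraries.

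Tbca and Vbp1 encode folding factors, a tubulin cofactor and a prefoldin subunit. Tbca stood at 1225, 524 and 1873 CPM against 174, 185 and 179 CPM (log2 difference -2.56, adjusted p 8e-06). Vbp1 stood at 76.7, 56.9 and 105 CPM against 8.16, 12.8 and 13.2 CPM (-2.68). The Cre-negative libraries varied by several times for Tbca, and even their lowest was above every Cre-positive library. Zcrb1, an RNA-binding protein of the minor spliceosome, stood at 975, 669 and 1298 CPM against 219, 201 and 203 CPM (-2.18). Tmem126a, an assembly factor of respiratory complex I, stood at 866, 445 and 1272 CPM against 199, 140 and 155 CPM (-2.27). In these 4 genes Cre-negative replicate 3 was highest and replicate 2 lowest, with replicate 1 between them. Ube2v2, a ubiquitin-conjugating cofactor, stood at 75.2, 43.8 and 105 CPM against 3.14, 6.67 and 4.6 CPM (-3.66). The small GTPase gene Arl4a stood at 52.4, 32.9 and 76 CPM against 3.9, 3.35 and 4.3 CPM (-3.42). Both showed the same order of the Cre-negative libraries.

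**Figure D3:**
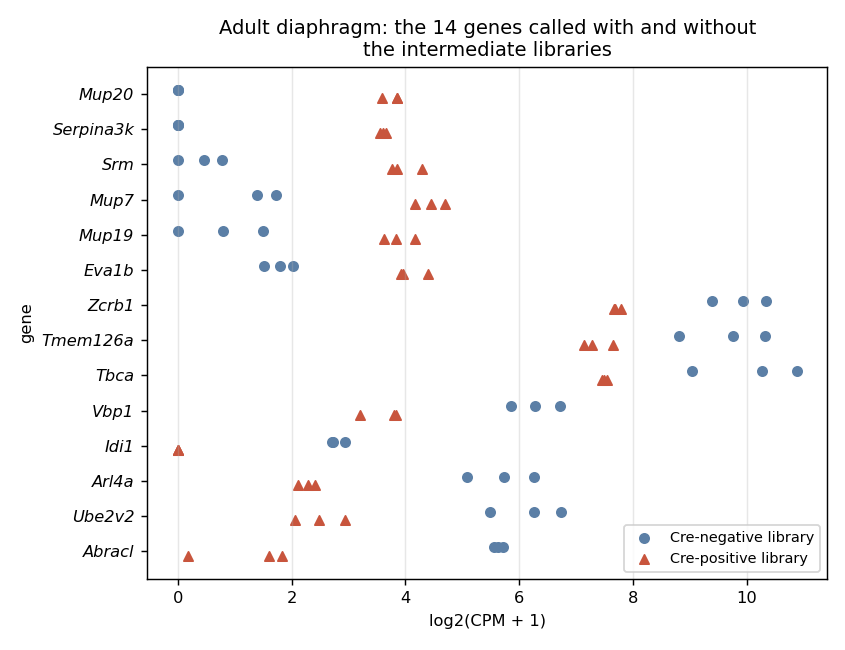
Levels of the 14 genes that passed with and without the intermediate libraries, as log2(CPM + 1) on the x axis, with blue circles for the 3 Cre-negative and red triangles for the 3 Cre-positive adult libraries. No gene's groups overlap, and Mup20, Serpina3k and Idi1 are at 0 in all 3 libraries of 1 group.

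Hepatocyte and plasma protein genes formed the list with the largest share of calls on the higher side. Of 23 tested members, 10 (background 3.06%) were higher and 0 (background 8.92%) were lower, 20 had a positive difference, and the median was 1.32 against -0.12 for all tested genes. Fabp1, the fatty acid-binding protein of liver, stood at 10.1, 15.3 and 0 CPM in Cre-negative and at 230, 117 and 129 CPM in Cre-positive libraries (log2 difference 4.76 ± 1.16 SE, limma adjusted p = 0.0094, and 0.27 without the intermediate libraries). Alb, albumin, stood at 0.93, 0 and 2.24 CPM against 33.5, 14.4 and 21.9 CPM (3.64, adjusted p 0.0018, and 0.2 without). Apoa2, an apolipoprotein of high-density lipoprotein, stood at 7.5, 0 and 11.2 CPM against 76.9, 41.5 and 52 CPM (3.57, adjusted p 0.0023, and 0.12 without). Cre-positive replicate 1 was the highest library for all 3 genes, and their groups did not overlap. The other called members were Serpina3k, Apoa1, Apoc3, Ttr, Serpina1a, Fgb and Ambp, with differences of 2.53 for Ambp to 3.61 for Serpina3k. Of the 10, only Serpina3k passed without the intermediate libraries, and Alb (adjusted p 0.041) and Apoa1 passed in the fit of the adult groups alone without theirs. RLE and quantile scaling also gave 10 higher and 0 lower, and edgeR gave 7 and 0. Apoc2 was at 0 in all 6 libraries, and 7 members were at 0 in all Cre-negative libraries. Members at 0 there could not have been called lower, so the count of lower calls was partly fixed in advance. The list was also chosen with earlier results of these data known, so its counts are no test of it. The members as a sum took 0.0138% to 0.0143% of reads in Cre-negative libraries and 0.0425% to 0.0864% in Cre-positive ones.

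Apoc4, an apolipoprotein gene at chr7:19678084-19681460 that is no member of that list, had the largest higher difference that the naming rule found. It was at 0 CPM in all 3 Cre-negative libraries and at 106, 44.9 and 66.3 CPM in the Cre-positive ones, at least 2149-fold higher by the 3-read floor (log2 difference 6.11 ± 0.88 SE, limma adjusted p = 9.1e-05). Without the intermediate libraries its difference was 6.13 with an adjusted p of 0.057. Liver genes also had reads in purified adult spinal cord, where Fabp1 averaged 94.6 ± 85.4, Apoa2 31.2 ± 22.8 and Alb 8.85 ± 6.2 CPM (SD, n = 3), and the list took 0.0264% to 0.0509% of reads. The liver genes Tat and Cps1 were at means of 0.589 and 0.476 CPM in the Cre-positive libraries. The liver markers Alb, Apoa1 and Ttr were called higher, as given above. The list's levels moved with genotype as given, and whether RNA of another tissue reached the libraries was not tested.

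The Mup genes lie together on chr4 between 59956804 and 62150841 in GRCm38, and were taken as a family after their values were seen. They include Gm21320, which RefSeq names Mup22. Of 22 in the table, 13 were tested, 11 were higher (3.06% over all tested genes), 0 were lower (8.92%) and 3 were higher without the intermediate libraries. Genes expressed in a single adult group could fail the filter of 3 libraries there, as Mup3 and Mup16 did. Of the adult and P10 diaphragm libraries, Mup3, Mup16, Mup17, Mup20 and Gm21320 reached 1 CPM only in the adult Cre-positive ones. Such members could hardly have been called lower, and the family was chosen for its values, so its counts are no test of it. Summed over the family, the level was 13.35, 0 and 25.6 CPM in Cre-negative replicates 1 to 3 and 188, 101 and 124 CPM in Cre-positive replicates 1 to 3. All 22 were at 0 in Cre-negative replicate 2, and 6 were at 0 in all 6 libraries. The family summed to 5.63 to 20.5 CPM in adult spinal cord and to 0 in all 6 P10 libraries. Mup14 and Mup10 did not pass (0.05 and 0.55, adjusted p 1 and 0.58), and their groups overlapped. These genes are near-identical copies, so a read can be credited to the wrong member, and single members are uncertain. Mup2 stood at 0, 0 and 3.22 CPM against 20.7, 9.91 and 16.5 CPM, and Mup19 as given above. How alike the transcripts are was not compared. The sequences before the starts of Mup2 and Mup19 lie outside the gene spans and show only how alike this pair is there. They are 119 bases upstream of the span of each gene in RefSeq (GRCm38.p6, minus strand, chr4:60139988-60140106 and chr4:61782356-61782474), 10 bases from it for Mup2 and next to it for Mup19, and capitals mark bases that differ or have no partner in the alignment of the pair.
Mup2: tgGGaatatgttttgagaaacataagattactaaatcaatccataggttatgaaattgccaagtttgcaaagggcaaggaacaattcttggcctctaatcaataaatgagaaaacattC
Mup19: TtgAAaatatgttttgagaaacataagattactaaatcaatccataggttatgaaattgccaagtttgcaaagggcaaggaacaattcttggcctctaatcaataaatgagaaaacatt
Of 118 aligned bases 116 were identical (98.3%).

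Mup levels are known to depend on sex in mouse liver, and the labels give no sex. The Y-linked genes Ddx3y, Eif2s3y and Uty had reads in all 6 adult libraries, with Ddx3y at 15, 13.1 and 14.9 CPM in Cre-negative and at 15.8, 4.59 and 8 CPM in Cre-positive libraries. They were looked at after the Mup values were seen. Another Y-linked gene, Kdm5d, was called higher, with means of 0.0493 and 5.22 CPM, and Ddx3y, Eif2s3y and Uty were not called.

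Among the other largest higher differences of the rule, Alkbh2, a DNA repair dioxygenase, stood at 0.056, 0 and 0 CPM against 13.6, 15.4 and 15.2 CPM (log2 difference 3.95, limma adjusted p = 0.0013, and 0.23 without the intermediate libraries). Its groups were each tight and far apart. Fcer1g, the signalling chain of Fc receptors on myeloid cells, stood at 0.291, 0.114 and 0.221 CPM against 66.9, 3.35 and 20.7 CPM (3.94, adjusted p 0.0036, and 0.27 without). Its Cre-positive libraries were themselves far apart, all above the Cre-negative ones. Mup3 stood at 0.0673, 0 and 0.0773 CPM against 21.8, 5.3 and 9.86 CPM (3.47).

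The largest lower difference of the rule was that of Wdr31, a WD-repeat protein, at 1371, 207 and 2283 CPM in Cre-negative libraries and at 51.6, 23.2 and 30.4 CPM in Cre-positive ones (log2 difference -4.67 ± 0.59 SE, limma adjusted p = 2.5e-05, and 0.055 without the intermediate libraries). Zfp575 (48.9, 8.57 and 83.3 against 1.11, 0.383 and 0.647 CPM) and Zfp119a (13.8, 16.6 and 8.31 against 0, 0.0467 and 0.235 CPM) encode zinc finger proteins and differed by -4.34 and -3.63. For Wdr31 and Zfp575 Cre-negative replicate 2 was several times below replicate 3, yet above every Cre-positive library. Fam92a, a membrane-curving protein linked to cilia, stood at 36.6, 17.2 and 57.2 against 1.09, 0.907 and 1.46 CPM (-3.99). Tmem218, a protein of the ciliary transition zone, stood at 20.4, 20.6 and 17.2 against 0, 0.813 and 0.784 CPM (-3.78). Ctxn3, a small membrane protein, stood at 22.1, 6.45 and 38.8 against 0.478, 0.645 and 0.794 CPM (-3.54). Gemin6, a part of the SMN complex that assembles splicing particles, stood at 32.9, 5.94 and 54.6 against 2.17, 0 and 1.77 CPM (-3.51, adjusted p 0.018, and 0.46 without the intermediate libraries). None of these 7 genes passed without the intermediate libraries, while Fam92a (adjusted p 0.016) and Zfp575 (0.043) passed in the fit of the adult groups alone without theirs.

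The targeted cell type was checked by its defining genes. Chat had 0, 0 and 0 reads in Cre-negative replicates 1 to 3 and 0, 0 and 2 reads in Cre-positive replicates 1 to 3, against 4372 to 4601 reads in adult spinal cord libraries. Slc18a3 had 0, 5 and 3 reads against 7, 8 and 6 reads, and Slc5a7 had 1, 0 and 1 reads against 0, 6 and 1 reads, while their spinal cord libraries had 11234 to 11950 and 5431 to 5663 reads. At these depths 3 reads correspond to 0.0337 CPM on average in the Cre-negative and 0.0298 CPM in the Cre-positive libraries, and counting error alone allows that much for a count of 0. The Cre-positive levels of all 3 genes were at most 0.0748 CPM in any library, under the 1 CPM filter, and they were not tested. The diaphragm libraries thus held almost none of the transcripts that define cholinergic neurons, in either genotype. Mnx1, a transcription factor of motor neurons, had 0 reads in all 6 libraries and 482 to 547 in spinal cord. Fewer cells or axon endings of a type and less RNA in each cannot be told apart in such bulk samples.

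Of 26 motor neuron and cholinergic genes, 14 were tested. Of these, 1 (7.14%, background 3.06%) was higher and 2 (14.3%, background 8.92%) were lower. The median was -0.03, and RLE scaling gave 2 higher, 1 lower and a median of 0.21. Aldh1a2, which makes retinoic acid, was the higher one, at 0.583, 0.183 and 1.66 CPM against 4.99, 5.37 and 5.47 CPM (1.88, limma adjusted p = 0.0078, and 0.53 without the intermediate libraries). Chodl, a lectin that marks fast motor neurons, was lower, at 9.93, 12.1 and 8.62 CPM against 1.02, 3.15 and 3.39 CPM (-1.74). Bcl6, a transcriptional repressor, was lower at 9.68, 9.98 and 11.1 CPM against 2.71, 6.13 and 4.52 CPM (-1.09, adjusted p 0.049, and 0.14 under RLE scaling). The neurofilament genes Nefm and Nefl, which are abundant in motor axons, were at 0.831 ± 0.133 against 1.16 ± 0.552 CPM and at 0.679 ± 0.141 against 0.907 ± 0.391 CPM (SD, n = 3), and neither difference passed the test. In spinal cord they were at 4961 and 3679 CPM. Summed, the list took 0.0048% to 0.0062% of reads in Cre-negative, 0.00427% to 0.00451% in Cre-positive and 1.43% to 1.46% in spinal cord libraries. The sum was lower in each Cre-positive library than in any Cre-negative one. Chodl and Bcl6 made up a large part of the Cre-negative sum, with means of 10.2 and 10.3 CPM against 2.52 and 4.45 CPM. The sum therefore does not describe the list as a set, in which 7 tested members had a positive and 7 a negative difference.

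Synaptic vesicle and release genes gave no call. Of 24 tested members 0 were higher or lower in limma (background 12%), with a median of -0.04. In limma 2 had an unadjusted p under 0.05, against 3519 of all 13853 tested genes. edgeR and DESeq2 each called 1, against 20.7% and 3683 of 12244 over all genes. Their sum was 0.0112% to 0.0157% of Cre-negative reads and 0.009% to 0.0112% of Cre-positive reads. The most abundant by mean, Napa and Napb, which recycle the fusion machinery, were at 40.2 ± 14.8 against 25.5 ± 8.25 CPM and at 22.9 ± 3.9 against 13.9 ± 7.84 CPM. Vamp2, the vesicle SNARE, was at 17.3 ± 2.46 against 18.6 ± 1.69 CPM, and Snap25, its plasma membrane partner, at 0.585 ± 0.234 against 0.25 ± 0.163 CPM. Those 2 were picked after their values were seen. The libraries of the groups overlapped for all 4 genes.

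The median of 29 tested axonal cytoskeleton and transport genes was -0.23. Of them 0 (background 3.06%) were higher and 4 (13.8%, background 8.92%) were lower. They were the kinesins Kif1a (3.59, 4.91 and 1.98 against 0.35, 0.0561 and 0.353 CPM, -1.80) and Kif5b (67.7, 64.7 and 68.3 against 48.3, 34 and 37.9 CPM, -0.74), with Basp1 (-1.12), a growth cone protein, and Dpysl3 (-0.88), a collapsin response mediator. Kif5b is also the general kinesin of muscle and other cells. Under RLE scaling the list had 2 higher and 1 lower, and Kif5b, Basp1 and Dpysl3 were no longer called (adjusted p 0.1, 0.069 and 0.15). None of the 4 passed without the intermediate libraries.

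Of 21 tested genes of the receiving side of the junction, 3 (14.3%, against 8.92% of all tested genes) were lower and 0 higher, with a median of -0.09. The direction depends on the scaling and tool, with 1 higher and 2 lower under RLE scaling and 3 higher and 2 lower in edgeR. Chrna1, a subunit of the acetylcholine receptor of muscle, stood at 9.98, 6.82 and 14.3 CPM against 1.77, 4.83 and 4.2 CPM (-1.32, limma adjusted p = 0.0088). Utrn, utrophin, which anchors the receptors, stood at 28.1, 38.6 and 18 CPM against 15.4, 7.67 and 9.38 CPM (-1.30), and Dag1, dystroglycan, at 21.7, 20 and 24.1 CPM against 12.4, 11.5 and 11.9 CPM (-0.82). The groups did not overlap for any of the 3, and without the intermediate libraries their adjusted p was 0.53 to 0.74. Agrn, the nerve-derived organizer of the junction, stood at 2.62, 1.85 and 3.59 CPM against 15.2, 2.61 and 6.49 CPM and did not pass (1.07, adjusted p 0.18, chosen after its values were seen), but it passed as higher under RLE scaling (adjusted p 0.039), quantile normalization (0.035) and in edgeR (0.028).

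Contractile genes of muscle took a large part of the reads in both groups. Acta1, the actin of skeletal muscle, stood at 33777, 37545 and 30900 CPM against 39007, 33588 and 36960 CPM (0.10 ± 0.09 SE, limma adjusted p = 0.56), and Ckm, muscle creatine kinase, at 5556, 5970 and 4720 CPM against 5472, 5079 and 5374 CPM (-0.02, adjusted p 0.99). Both pairs overlapped. Acta1 was called higher under RLE scaling (0.46, adjusted p 0.032) and by edgeR (0.44, adjusted p 0.011), and its difference was -0.11 with quantile normalization, while Ckm was at 0.33 under RLE scaling (adjusted p 0.15). The 20 fast contractile genes took 12.6% to 14.5% of Cre-negative and 14.8% to 15% of Cre-positive reads, and 1 was called, Tnni2, the inhibitory troponin of fast fibres. It stood at 21461, 22703 and 20148 CPM against 25652, 28257 and 27012 CPM (0.33, adjusted p 0.0088), and its difference was -0.08 with quantile normalization, so its direction depends on the scaling. Its slow-fibre counterpart Tnni1 stood at 164, 188 and 162 CPM against 350, 283 and 289 CPM (0.84, adjusted p 0.00012, and 0.2 without the intermediate libraries). The other 2 calls among 15 slow contractile genes were lower, the muscle LIM protein Csrp3 (212, 182 and 238 against 111, 87.8 and 93.5 CPM, -1.10) and Myoz2 (503, 348 and 589 against 264, 220 and 232 CPM, -0.98), a Z-disc protein that was not called under RLE scaling (adjusted p 0.17). Over all tested genes, limma called 3.06% higher and 8.92% lower. On the recovered reads, edgeR called 4 higher and 1 lower of the fast and 6 higher and 2 lower of the slow genes. DESeq2 called 7 and 8. The shares over all genes were 11.7% higher and 9.02% lower in edgeR and 3683 of 12244 called in DESeq2.

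Of 20 genes of calcium handling and excitation coupling, 1 (5%, background 3.06%) was higher and 4 (20%, background 8.92%) were lower. The median was -0.17, and RLE scaling gave 3 higher, 4 lower and a median of 0.18. Trdn, triadin, which ties the calcium release channel to its store, stood at 495, 307 and 642 CPM against 189, 129 and 147 CPM (-1.58, limma adjusted p = 0.00055, and 0.2 without the intermediate libraries). Asph, whose locus also encodes junctin, stood at 148, 86.1 and 189 CPM against 58.3, 52.8 and 58 CPM (-1.24), and Jph1, junctophilin, at 23.1, 15.8 and 28.4 CPM against 9.47, 9.11 and 8.61 CPM (-1.18). Pln, phospholamban, was lower at a lower level (3.93, 1.05 and 6.58 against 1.09, 0.402 and 0.696 CPM, -1.32), and its groups overlapped. The calcium channel subunit Cacng1 was the higher one (0.98). For Trdn, Asph and Jph1 the Cre-negative replicates again ran from a low replicate 2 to a high replicate 3, all above the Cre-positive libraries.

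Of 16 genes of satellite cells and myogenic regulation, 2 (12.5%, background 8.92%) were lower and 0 (background 3.06%) higher. Both were myogenic transcription factors, and 1 was lower under RLE scaling. Myf6 stood at 56, 41.4 and 78.4 CPM against 11.7, 14.5 and 14.4 CPM (-2.0, limma adjusted p = 0.00011, and 0.1 without the intermediate libraries), and Myog at 0.863, 1.41 and 1.32 CPM against 0, 0.467 and 0.235 CPM (-0.84). The denervation and atrophy list had a median of -0.43, and RLE scaling gave -0.17 with 2 lower and 0 higher. On the CPM scale, 4 of 16 (25%, background 8.92%) were lower and 0 (background 3.06%) higher. They were Myog and Chrna1 again, Gadd45a (31.4, 10.1 and 47.3 against 10.6, 6.62 and 8.83 CPM, -1.44), a stress response gene whose groups overlapped, and Mustn1 (-1.01), a musculoskeletal nuclear protein.

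The genes that run mitochondria gave calls in both directions. Of 76 tested nuclear-encoded respiratory chain genes, 13 (17.1%, background 3.06%) were higher. The 6 lower ones (7.89%) were near the background of 8.92%. The median was 0.18, and under RLE scaling 27 were higher and 1 lower, with a median of 0.53. Quantile normalization gave 9 higher and 2 lower and edgeR 41 higher and 3 lower. They took 27.9% to 28.9% of Cre-negative and 31.3% to 35.8% of Cre-positive reads, and these shares did not overlap. Uqcr11, a small subunit of complex III, stood at 21192, 24032 and 22400 CPM against 34435, 38485 and 35648 CPM (0.68, limma adjusted p = 0.0015, and 0.2 without the intermediate libraries), and with quantile normalization its difference was 0.19 (adjusted p 0.48). Ndufa1, of complex I, stood at 9733, 11766 and 9436 CPM against 16182, 16988 and 16319 CPM (0.68), and was not called with quantile normalization (0.61, adjusted p 0.16). Ndufv2, also of complex I, was lower at 569, 537 and 648 CPM against 299, 283 and 295 CPM (-0.99, adjusted p 9.7e-06, and 0.068 without), as was Cycs, cytochrome c, at 1060, 788 and 1272 CPM against 509, 561 and 531 CPM (-0.93, and -0.58 with an adjusted p of 0.21 under RLE scaling). The higher calls were Ndufa1, Ndufa2, Ndufa3, Ndufa7, Ndufs6, Ndufv3, Uqcrq, Uqcr11, Cox5b, Cox6a1, Cox6b1, Cox7a1 and Cox8a. None of the 19 passed without the intermediate libraries, while Uqcr11 (adjusted p 0.0072), Ndufa1 (0.029) and Cox7a1 (0.032) passed in the fit of the adult groups alone without theirs.

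Ribosomal protein genes, whose products form the particle that the purification holds, had a median of -0.12, equal to that of all genes. Of 80 tested, 4 (5%, background 3.06%) were higher and 16 (20%, background 8.92%) lower. RLE scaling turned this to 17 higher and 4 lower with a median of 0.24, so the list has no direction that holds across scalings. Rps7 stood at 885, 476 and 1080 CPM against 304, 351 and 343 CPM (-1.21), Rpl17 at 470, 323 and 607 CPM against 176, 232 and 244 CPM (-1.07), Rps27 at 5651, 3799 and 7057 CPM against 2527, 2767 and 2860 CPM (-0.97) and Rps19 at 1597, 1139 and 2025 CPM against 763, 885 and 834 CPM (-0.90). The 4 stayed negative under RLE scaling, at -0.85, -0.71, -0.62 and -0.55, and Rps19 then had an adjusted p of 0.063. Rpl22 itself, the tagged protein's gene, stood at 25, 21.6 and 24.3 CPM against 11.8, 13.5 and 15.1 CPM (-0.77, limma adjusted p = 0.047, and 0.37 under RLE scaling). The deposited gene values do not separate tagged from untagged Rpl22 transcripts, so they do not check the genotype.

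Among 35 translation factors 1 (2.86%) was higher and 3 (8.57%) were lower, close to the 3.06% and 8.92% of all tested genes, and RLE scaling turned this to 3 higher and 1 lower. Eif5a, which helps ribosomes through stalling sequences, stood at 38.7, 28.6 and 41.5 CPM against 19.5, 14.3 and 17 CPM (-1.05), Eif3e, an initiation factor subunit, at 126, 82.8 and 147 CPM against 66.4, 40.6 and 52.7 CPM (-1.13) and Eif1, which acts in start codon choice, at 1427, 1218 and 1664 CPM against 922, 939 and 923 CPM (-0.62). Eef1d, an elongation factor subunit, was higher (297, 304 and 258 against 367, 418 and 401 CPM, 0.47). Their adjusted p without the intermediate libraries was 0.28 to 0.68.

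Of 31 proteasome genes 1 (3.23%) was higher and 6 (19.4%, against 8.92% of all tested genes) were lower, with a median of -0.23. RLE scaling gave 3 higher, 3 lower and a median of 0.13, and edgeR 4 higher and 4 lower, so the list has no direction that holds across scalings. The base ATPases Psmc2 (51.2, 39.4 and 64.1 against 15.9, 12.9 and 14.4 CPM, -1.75) and Psmc6 (140, 117 and 155 against 32.6, 47.5 and 43.1 CPM, -1.73) had the largest differences of the called members, and the lid subunit Psmd12 came next (100, 114 and 83.2 against 52.9, 35.3 and 39.6 CPM, -1.21). Psmc1 (-0.77), Psma1 (-0.76) and Psmb1 (-0.48) were the other lower calls and Psmb4 (0.59) the higher one. Heat shock and unfolded protein response genes gave 5 lower (19.2%, background 8.92%) and 0 higher (background 3.06%) of 26. Among the lower ones were the chaperone Pdia6 (61.7, 56.6 and 68.1 against 30.4, 26.8 and 28.4 CPM, -1.09, limma adjusted p = 0.0009, and 0.34 without the intermediate libraries), Xbp1, the transcription factor of that response (-1.24), Dnajb1 (-1.11) and Hsp90b1 (-0.70). Under RLE scaling that list had 3 higher and 1 lower.

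**Figure D4:**
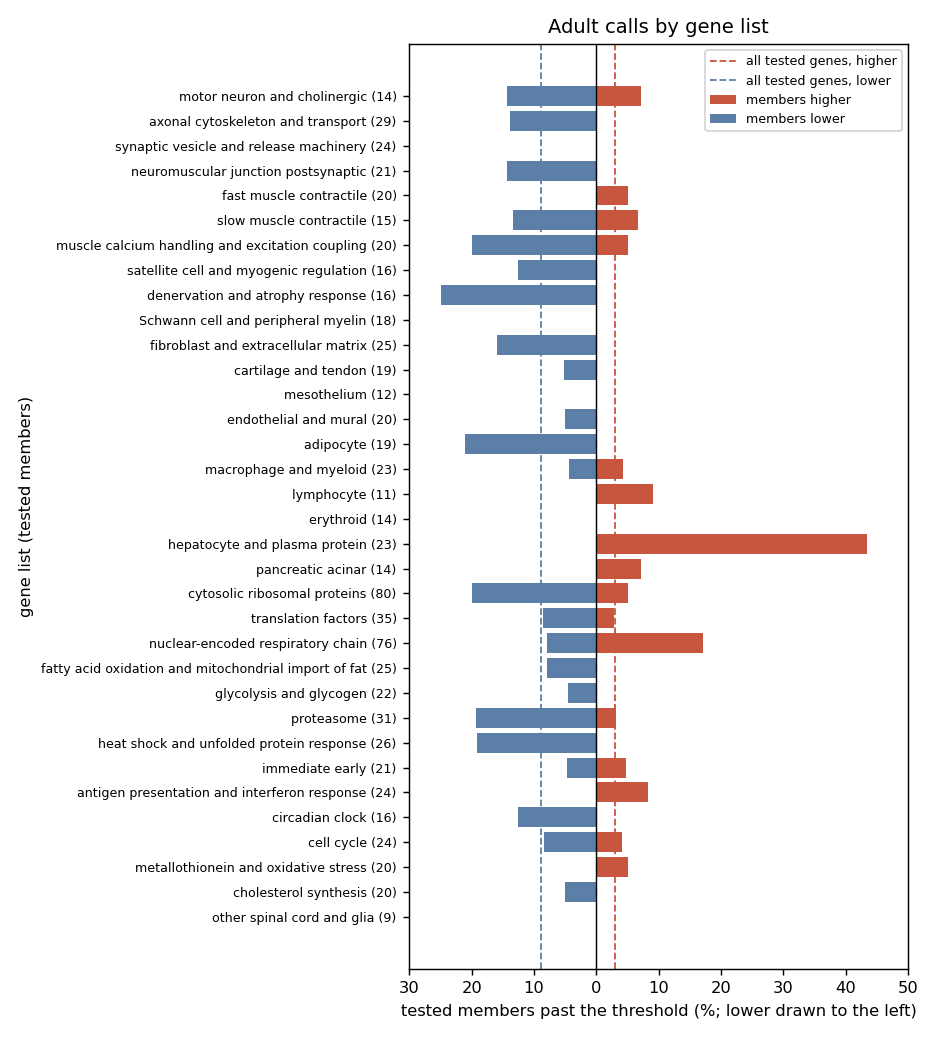
Percent of the tested members of each of the 34 gene lists that were called higher (red, to the right) or lower (blue, to the left) in adult Cre-positive libraries, with dashed lines at the 3.06% and 8.92% of all tested genes. The hepatocyte and plasma protein list, with 10 of 23 members higher, has the longest bar.

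Markers of the other cells of the muscle were as follows. Fibroblast and matrix genes gave 4 lower (16%, background 8.92%) and 0 higher (background 3.06%) of 25. The median was -0.51, and RLE scaling gave 3 lower, 1 higher and a median of -0.17. Mfap5, a microfibril protein, led the lower calls at 57.9, 75.5 and 42.3 CPM against 28.8, 24.4 and 24.9 CPM (-1.10, limma adjusted p = 0.001, and 0.33 without the intermediate libraries). The proteoglycans Ogn (-1.10) and Dcn (265, 278 and 258 against 182, 113 and 138 CPM, -0.91) and the collagen gene Col6a1 (-1.01) were the others, and the list took 0.138% to 0.167% of Cre-negative and 0.109% to 0.145% of Cre-positive reads. Adipocyte genes gave 4 lower (21.1%, against 8.92% of all tested genes) and 0 higher of 19, and RLE scaling turned this to 1 lower and 1 higher with a median of 0.14, where Fabp4 was no longer called (adjusted p 0.082). Lpl, lipoprotein lipase, stood at 1083, 915 and 1242 CPM against 666, 427 and 500 CPM (-1.04), and Fabp4, the fatty acid-binding protein of fat and capillaries, at 1610, 1719 and 1513 CPM against 1174, 837 and 977 CPM (-0.71). Pparg (-1.52), the regulator of fat cell fate, and Cidec (-0.94), a lipid droplet protein, were lower too, and Fabp4 was the only call among 20 endothelial and mural genes. Cd36, a fatty acid transporter, stood at 243, 187 and 304 CPM against 109, 96.8 and 104 CPM (-1.21, adjusted p 0.00019). With Hadhb (-0.57), of beta oxidation, it was lower among 25 fat oxidation genes (8%, background 8.92%), of which 0 were higher (1 lower and 1 higher under RLE scaling). These genes are also expressed by muscle fibres.

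Schwann cell and myelin genes gave 0 calls of 18 in limma, with a median of 0.04, while 3 had an unadjusted p under 0.05. For this list edgeR called 4 higher and 1 lower, and DESeq2 called 6. As background for all lists of this paragraph, 3519 of 13853 genes had an unadjusted p under 0.05 in limma. edgeR called 11.7% of all genes higher and 9.02% lower, and DESeq2 called 3683 of 12244. Mbp, myelin basic protein, stood at 40.8, 58.9 and 35.7 CPM against 71.9, 32.5 and 37.8 CPM (0.02), and Pmp22, a peripheral myelin protein, at 34, 45.6 and 27.1 CPM against 40.5, 28.1 and 35.8 CPM (-0.02). Erythroid genes gave 0 calls of 14 in limma, edgeR and DESeq2, 0 had an unadjusted p under 0.05, and they took 1.74% to 2.07% of Cre-negative and 1.14% to 2.27% of Cre-positive reads, with the alpha globin gene Hba-a1 at 7336, 6394 and 7571 CPM against 8472, 4384 and 5364 CPM. Neither the mesothelium list (12 tested, 0 calls, C3 0.84 with an adjusted p of 0.21 and Igfbp5 0.09) nor the list of other spinal cord and glial genes (9 tested, 0 calls, Pvalb 0.22 and Camk2a 0.48) held a limma call. Of them 1 and 0 had an unadjusted p under 0.05, edgeR called 2 and 1, and DESeq2 called 2 of each. Against 3.06% higher and 8.92% lower over all tested genes, the myeloid list held Fcer1g as a higher and the receptor gene Csf1r (10.5, 9.12 and 11.3 against 5.22, 2.55 and 4.23 CPM, -1.21) as a lower call of 23. Among 11 lymphocyte genes 1 was higher, the B cell receptor component Cd79b, at 0 in Cre-negative and at 4, 0.374 and 1.9 CPM in Cre-positive libraries (1.44), and in the pancreatic list 1 of 14 was, the elastase Cela1 (1.59), while 17 of its 18 members were at 0 in all 6 libraries.

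The remaining lists gave few limma calls on the CPM scale, where 3.06% of all tested genes were higher and 8.92% lower. Antigen presentation and interferon genes had 2 higher and 0 lower of 24, Psmb9, a subunit of the immunoproteasome (0, 0 and 0.519 against 9.51, 5.94 and 5.71 CPM, 2.78, limma adjusted p = 0.0016), and Tap2, a peptide transporter (5.73, 2.33 and 5.37 against 25.3, 7.14 and 11.9 CPM, 1.42). Both were highest in Cre-positive replicate 1. Circadian genes had 2 lower and 0 higher of 16, Nr1d2, a repressor in the clock (21, 19.8 and 24.2 against 8.64, 4.93 and 6.05 CPM, -1.61), and Hlf, a clock output factor (-1.55). The immediate early list had Ier2 higher (8.59, 15.7 and 1.6 against 26.7, 15.9 and 18.1 CPM, 1.47) and Maff lower (-1.89) of 21. The cell cycle list had 1 higher and 2 lower of 24, the centromeric histone gene Cenpa (1.90) and the replication helicase genes Mcm3 (-1.58) and Mcm5 (-1.57). Of the glycogen and glycolysis list 1 of 22 was lower, the phosphorylase kinase subunit Phkb (39.2, 41 and 33.6 against 16.3, 13.2 and 16 CPM, -1.27). For that list RLE scaling gave 6 higher and 1 lower, edgeR 10 higher and 1 lower, and DESeq2 13 calls. The shares over all genes were 7.03% higher and 5.76% lower under RLE scaling and 11.7% and 9.02% in edgeR. DESeq2 called 3683 of 12244. Lower was also 1 of 19 genes of the cartilage and tendon list, the matrix protein Thbs4 (-1.22), and 1 of 20 of the cholesterol synthesis list, Idi1. Sod1, the cytosolic superoxide dismutase, was higher at 878, 826 and 1025 CPM against 1278, 1250 and 1284 CPM (0.49), as 1 of 20 oxidative stress and metallothionein genes. Of the genes in this paragraph, Idi1 alone passed without the intermediate libraries.

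Gene span and the level in purified spinal cord were described for the called genes. The median gene span was 11.7 kb for the 424 higher, 22.5 kb for the 1235 lower and 22.9 kb for all tested genes. The median level in adult spinal cord was 6.13 CPM for the higher, 17.8 CPM for the lower and 6.53 CPM for all tested genes. Of the 424 higher genes 68 were at 0 in all 3 Cre-negative libraries, against 1293 of all 13853 tested genes. Of the 1235 lower genes 39 were at 0 in all 3 Cre-positive libraries, against 954 of all tested genes. These values describe the calls and carry no test.

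The design also allows the adult difference to be set against that at P10, measured in other libraries. At P10, 201 genes (1.45%) passed, 58 higher (0.419%) and 143 lower (1.03%). In both ages 2 genes were higher and 19 lower, 1.27% of the adult calls and 10.4% of the P10 calls, and 14 were called in opposite directions. The 2 are of 58 genes higher at P10, while 3.06% of all tested genes were higher in the adult. The 19 are of 143 genes lower at P10, while 8.92% of all tested genes were lower in the adult. The overlap of the higher genes is thus near the share over all genes. These P10 calls include the intermediate libraries. The genes that were higher at both ages were Sod1, at 0.49 in the adult and 0.47 at P10, and the apolipoprotein gene Apoc3, at 3.34 and 3.47. Psmc2 (-1.75 and -1.34), Psmd12 (-1.21 and -0.88), Eif5a (-1.05 and -1.02) and Pln (-1.32 and -1.79) were among those lower at both. Alb had a P10 difference of 2.46 that did not pass (21.9 against 100.4 CPM, limma adjusted p = 0.1), and Apoc4 one of 2.37 (5.15 against 31.4 CPM, adjusted p 0.22), while Mup20 and Serpina3k had no read at P10. The hepatocyte and plasma protein list had a median of 1.49 at P10 and 1.32 in the adult, with 2 members higher and 0 lower at P10. It took 0.0246 ± 0.0198% of Cre-negative and 0.085 ± 0.047% of Cre-positive P10 reads (SD, n = 3).

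Tested directly as adult difference minus P10 difference, 583 genes (4.21%) changed, 241 (1.74%) upward and 342 (2.47%) downward. Without the intermediate libraries 1 gene, Abracl, passed (0.00753%) and 511 had an unadjusted p under 0.05, and edgeR called 1221 (9.97%) with all libraries and 0 (0%) without the intermediate ones, where 782 had an unadjusted p under 0.05. Leaving out Cre-negative replicate 1 alone gave 327 calls, and leaving out Cre-positive replicate 3 alone gave 339. Abracl stood at 37.2, 23.4 and 26 CPM in Cre-negative and 31.3, 74.6 and 45.1 CPM in Cre-positive P10 libraries, which overlapped. Its difference thus went from 0.72 to -4.43, a change of -5.15 ± 0.49 SE (limma adjusted p = 3e-06, and 0.049 without the intermediate libraries). Fcer1g had the largest upward change, 4.92 ± 1.19 SE (adjusted p 0.019), from 55.5 against 27.7 CPM at P10. The sulfurtransferase gene Tst stood at 3.97, 4.06 and 5.27 CPM against 57.9, 28.5 and 35.9 CPM in the adult and at means of 22.6 against 11.5 CPM at P10, a change of 3.85. H2-DMb1, which loads peptide onto class II molecules, changed by 4.08, and Rcl1, of ribosomal RNA processing, by 3.90. Fam92a changed by -4.56. Gm21320, the Mup22 of RefSeq (3.79), and the genes with provisional names D230025D16Rik (-6.01), Gm11127 (-5.52) and 2410137M14Rik (-4.55) complete the 5 largest per direction. Gm21320 was at 0 in all 6 P10 libraries, so its change only repeats its adult difference.

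**Figure D5:**
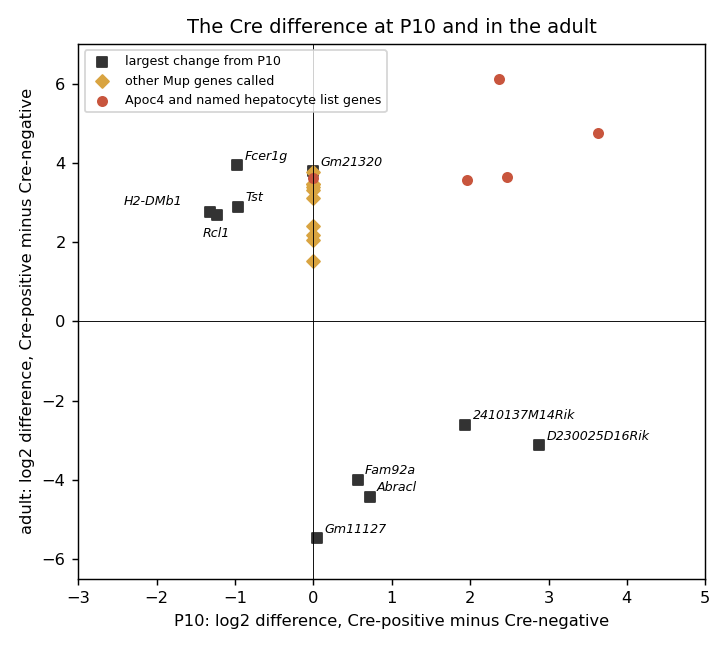
Log2 difference, Cre-positive minus Cre-negative, at P10 (x axis) and in the adult (y axis) for the 5 genes per direction with the largest change between the ages (squares), the other called Mup genes (diamonds) and Apoc4 with the named hepatocyte list genes (circles). The Mup genes sit at 0 on the P10 axis, since they had no read there, and Abracl lies at 0.72 and -4.43.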

How the data were processed

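RNA purified through the HA tag was sequenced from diaphragm and spinal cord at 4 ages, and the 6 adult diaphragm libraries are compared here. The authors deposited CPM, reads per 1000000 over the 18845 genes of the table, and each column adds up to 1000000. The notes of the submitters on processing name Bowtie2 (2.2.5), RSEM (1.2.12) and the build mm10, while the order of steps and the use of strand are not given in the sources used here. The members and the 34 gene lists were chosen with earlier results of these data known.

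Dividing each value by the step that 1 read makes gave numbers within 0.1 of a whole in 100% of values, which gave the depths. The main test was limma 3.58.1 (R 4.3.3, trend and robust variance) of log2(CPM + 1) in all 24 diaphragm libraries, with 8 groups that share 1 variance per gene. A group at 0 adds no spread to that variance, and a library between the other libraries of its group adds little. The p-values can be too small for both reasons. A gene entered it if at least 3 libraries reached 1 CPM. With 3 libraries a side, an exact permutation test of a single value cannot go below 0.1. Benjamini-Hochberg adjustment ran over all tested genes, and an adjusted p without a tool's name is limma's. Differences are of mean log2(CPM + 1), and the added 1 understates ratios of genes near 0. Values with ± are mean and SD unless SE is written. A bound sets a library at 0 to 3 reads, which covers counting error only.

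Named genes are the 10 largest called differences per direction at 10 CPM or more in the higher group without overlap, predicted genes left out, then up to 4 called members per list or the 2 most abundant where none was called, the 5 largest changes from P10 per direction, and Chat, Slc18a3, Slc5a7, Rpl22, Acta1 and Ckm. The 14 genes called without the intermediate libraries, further called members of lists, the Mup family and the Y-linked genes were named after their values were seen. edgeR 4.0.16 and DESeq2 1.42.0 were run on the reads of the 12 adult and P10 diaphragm libraries. The limma fit alone was tested on simulated data. Those data had independent libraries and no intermediate library, so that test does not cover the intermediate libraries found here. Of the gene IDs, 18719 matched the RefSeq table (GRCm38.p6, the assembly behind mm10), the source of positions and sequences. Alternatives were a pseudocount of 0.1, no filter, quantile and RLE scaling, the compared groups alone, the replicate number as a block, edgeR, DESeq2 and leaving out libraries.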

Additional observations from a re-analysis of the deposited data

Results flagged for a closer look

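The difference between Cre-positive and Cre-negative diaphragm was itself different in the adult and at P10 for 583 genes in limma's interaction term. The 5 largest changes per direction, by the naming rule, are given with their values on the log2 scale. The upward ones were Fcer1g (4.92 ± 1.19 SE, limma adjusted p = 0.019), H2-DMb1 (4.08, adjusted p 0.014), Rcl1 (3.9, adjusted p 0.00033), Tst (3.85, adjusted p 7.8e-05) and Gm21320 (3.79, adjusted p 1.1e-07). Tst stood at 20, 24.8 and 23.1 CPM in Cre-negative and 9.1, 16.2 and 9.28 CPM in Cre-positive P10 libraries, and in the adult the Cre-positive libraries were the higher ones. The downward ones were D230025D16Rik (-6.01 ± 0.87 SE, adjusted p 0.00037), Gm11127 (-5.52, adjusted p 0.0022), Abracl (-5.15, adjusted p 3e-06), Fam92a (-4.56, adjusted p 0.0041) and 2410137M14Rik (-4.55, adjusted p 0.00025). D230025D16Rik stood at 6.6, 9.24 and 7.58 CPM in adult Cre-negative libraries and at 0 in the adult Cre-positive ones, against 1.67, 0 and 0.872 and 9.68, 13.7 and 11.7 CPM at P10. Without the intermediate libraries Abracl alone of these 10 passed (adjusted p 0.049), and Gm21320 was not tested there. Of the adult and P10 diaphragm libraries, Gm21320 reached 1 CPM only in the adult Cre-positive ones, where it is high. It was at 0 in all P10 libraries, so its change is its adult difference again and no separate result about age.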

How the results depend on the processing

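Against 1659 calls in the adult comparison, edgeR gave 2539, DESeq2 3683, leaving out the intermediate library of every group 14, leaving out only the 2 adult ones 434, the adult groups alone without theirs 52, and edgeR without the intermediate libraries 0 (1351 at an unadjusted p under 0.05). Leaving out 1 adult library gave 844 (Cre-negative replicate 1) to 1639, and 909 without Cre-positive replicate 3. Against 583 calls for the change from P10, quantile normalization gave 895, the compared groups alone 1335, edgeR 1221, DESeq2 2378, leaving out every intermediate library 1, leaving out the 2 adult ones 139, and edgeR without the intermediate libraries 0 (782 at an unadjusted p under 0.05). Leaving out 1 adult library gave 327 to 820. With the replicate number as a block the counts were 1572 and 545. Same-numbered libraries of the adult groups had correlations of -0.0192, -0.0555 and 0.0541 in their deviations from the group means. With 3 libraries a group, these values show no pairing by number but cannot exclude it. Tnni2 was the only named gene whose difference changed sign with a call on either side, to -0.081 with quantile normalization. Counted over named genes and alternatives, the side of the threshold held in 1498 cases, in 26 of which a difference called on neither side changed sign, and a call was lost in 558 and gained in 12. Without the intermediate libraries, 95 calls of named genes were lost and 20 cases held. The cause of these differences was not tested, except that leaving out libraries leaves 2 per group. Leaving out the 2 adult libraries only, the adult groups alone without theirs, and edgeR without the intermediate libraries were chosen after seeing the data. Depth sets the floor of 3 reads for a gene at 0, or 0.0337 CPM in Cre-negative and 0.0298 CPM in Cre-positive libraries on average.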
